A study of Mus musculus with 8 samples.

Results

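The axon guidance ligands and receptors of the semaphorin, plexin, neuropilin, ephrin, Eph, Slit, Robo, netrin, Dcc and Unc5 families were taken from the gene table by symbol, which gave 70 of the 53801 genes listed. Of these, 67 are protein coding and 3 are transcripts antisense to Plxna4 whose symbols match the same pattern. They comprise 7 class 3 semaphorins and 13 other semaphorins, 12 plexin entries, 2 neuropilins, 5 ephrin-A and 3 ephrin-B ligands, 9 EphA and 5 EphB receptors, 3 Slits, 4 Robos, 2 netrins and 5 netrin receptors. The rule reads symbols alone, though the families were picked with earlier results of these data known.

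RNA was sequenced from stromal cells that lacked CD45 and CD31, the surface proteins of leukocytes and endothelium, and that were sorted by flow cytometry from ulcers of the small intestine in LTβRYFP mice given indomethacin. Indomethacin is a non-steroidal anti-inflammatory drug that inhibits cyclooxygenases and injures the small intestine of mice. The YFP+ group (YFP-positive) and the YFP- group (YFP-negative) each held 4 libraries, numbered 1 to 4 in both. All 8 libraries shared the LTβRYFP line, the indomethacin treatment and the tissue, and no library from untreated tissue was analysed here. The sources used here do not give the age or number of the mice, how the reporter is driven or how long indomethacin was given. The labels also do not say whether equal replicate numbers share an animal, so every p-value reflects only how far these libraries spread, which may be technical.

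Axon guidance molecules are secreted or membrane-bound cues and their receptors, first described in growing nerve fibres and also used by vessels, epithelium and stroma. Class 3 semaphorins are secreted and signal through neuropilins and plexins, the other semaphorins mostly bind plexins directly, Slits bind Robo receptors, and netrins bind Dcc and Unc5 receptors. Ephrins and Eph receptors sit on opposing cells and signal in both directions, and in the intestine the EphB receptors are known for sorting epithelial cells along the crypt.

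Library totals ran from 12481608 to 29385718 counts, so that 1 CPM (a count scaled to library size and TMM factors) stood for about 12 counts in the smallest library. Fibroblast genes were abundant in all 8 libraries (the collagen gene Col1a1 at 4299 to 11349 CPM), while the leukocyte gene Ptprc, which encodes CD45, was at 0.877 to 12.2 CPM and the endothelial gene Pecam1, which encodes CD31, at 11.1 to 46.9 CPM. The summed CPM of 9 adventitial fibroblast markers was lower in the YFP-positive library of all 4 same-numbered pairs (12836 to 18072 in YFP-negative, 7764 to 11957 in YFP-positive libraries), as were the sums for 8 general fibroblast markers, 10 enteric glia markers and 9 immediate early genes. The sum for 6 pericyte markers was also lower in all 4 pairs through Rgs5, its most abundant gene, while the other 4 of the 5 tested had log2 fold changes above 0. The sums for 9 subepithelial fibroblast markers (703.7 to 1094 against 864 to 1449; Foxl1 was at 0), 7 smooth muscle markers and 13 leukocyte markers (22.3 to 40.8 against 23.8 to 65.3; Itgam was at 0) were higher in 4 of 4. With the replicate number in the model, 7 of the 10 leukocyte markers tested had log2 fold changes above 0 and 3 below. Only 2 of the 13 had a mean of at least 5 CPM. The sum for endothelial markers (65.5 to 146 against 52.0 to 262) was higher in 2 of 4. Of the 10 endothelial markers tested, however, 9 had log2 fold changes above 0 and 1 below. With the replicate number in the model their median was 0.60, and 0 of the 10 passed after adjustment for multiple testing. The mitochondrial share of counts was 8.07% to 12.4% in YFP-negative and 7.71% to 9.43% in YFP-positive libraries.

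When the 2 groups were compared with edgeR, a count test, without regard to the replicate numbers, 0 of the 62 guidance genes with enough counts passed a Benjamini-Hochberg adjusted p of 0.05, beside 0.0% of the 15945 genes tested. At an unadjusted p of 0.05 or below this fit had 0 guidance genes higher and 4 lower (Slit3, Sema3b, Ephb2 and Ntn4), beside 0.978% and 1.06% of all genes tested, and DESeq2 and limma voom without the block also called 0. Same-numbered libraries deviated together, and once the replicate number entered the edgeR model (the blocked fit) 6 guidance genes were called. Sema3f rose in YFP-positive cells, and 5 genes fell: Slit3, Slit2, Ntn4, Ephb2 and Sema3b. In that fit 2.28% of all genes tested were called, 0.696% higher and 1.59% lower, and the 6 were 9.68% of the guidance genes tested. Calls are commoner among abundant genes: of the 44 guidance genes with a mean of at least 5 CPM, 13.6% were called, beside 3.4% of all 10534 such genes (1.02% higher and 2.38% lower). Of the 31 ligands tested 1 rose and 4 fell, and of the 31 receptors tested none rose and 1 fell in the blocked edgeR fit. The median log2 fold change of the 62 genes was 0.04, beside 0.00 over all genes, with 35 above 0 and 27 below. The YFP-positive library was the higher one in all 4 pairs for 11 guidance genes (8.86% of all genes tested) and the lower one for 10 (10.2%). With library sizes alone in place of TMM factors, 2 guidance genes were called higher and 3 lower (212 and 153 of all genes, beside 111 and 253). Every fall or rise named from here on rests on the blocked TMM fit.

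**Figure D1:**
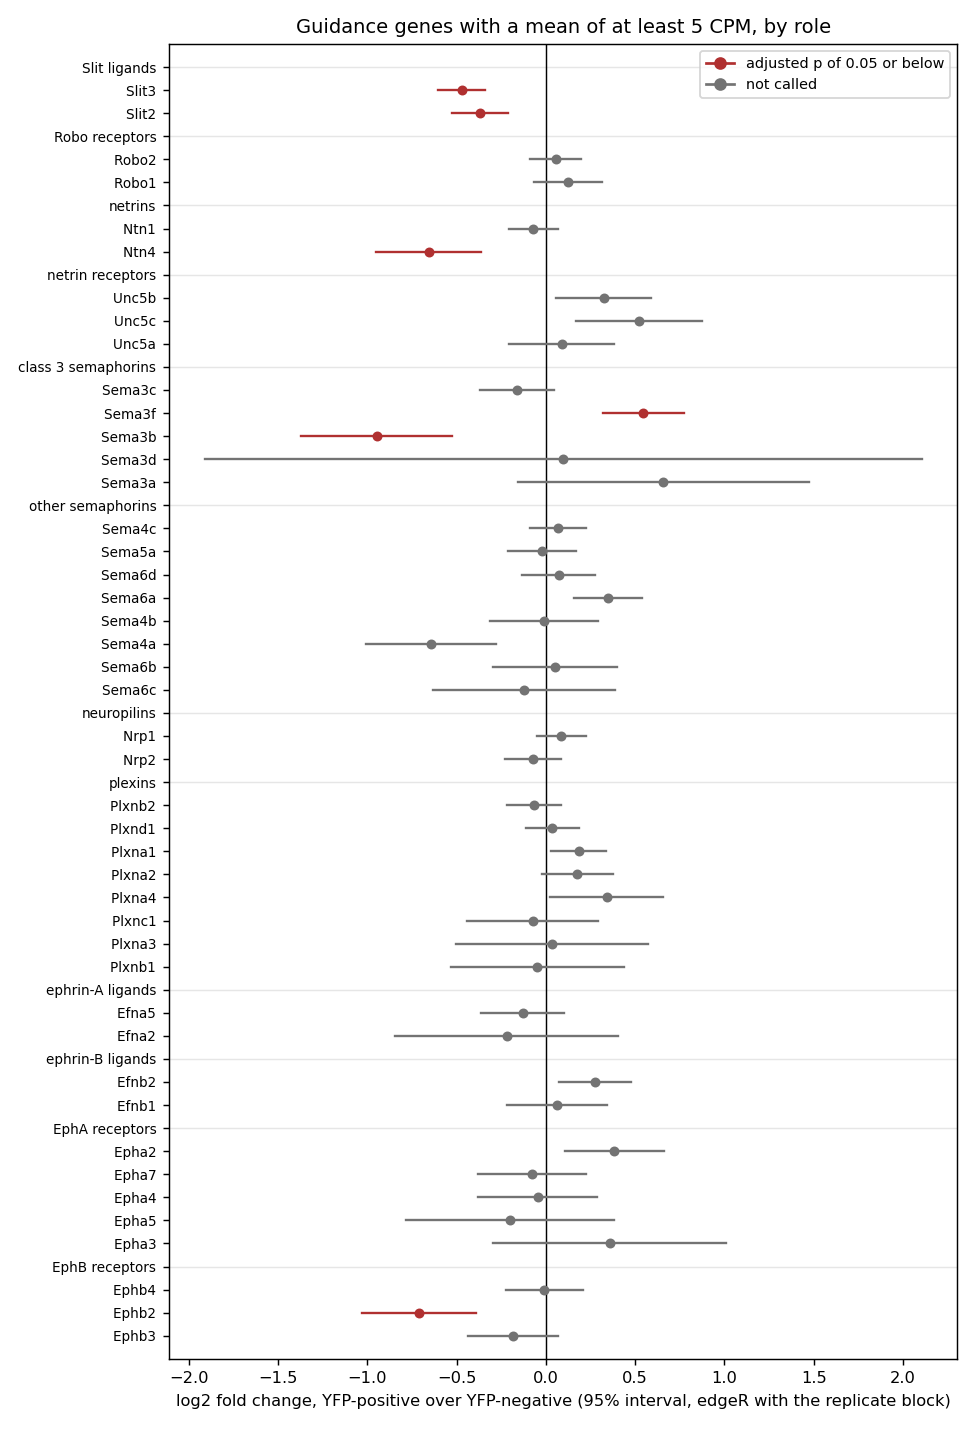
Log2 fold change, YFP-positive over YFP-negative, with its 95% interval (horizontal axis) for the 44 guidance genes with a mean of at least 5 CPM, grouped by role, from edgeR with the replicate block. The 6 genes called at an adjusted p of 0.05 are in red: Sema3f lies to the right of 0, and both Slits, Ntn4, Sema3b and Ephb2 lie to the left.

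The promoters of the 4 called genes with an entry in the RefSeq promoter table (build GRCm38.p6, 57 of the 70 genes matched) are shown because Slit3, Slit2, Ntn4 and Ephb2 all fell. Sequences run 5′ to 3′ on the gene's strand over the 250 bases before the RefSeq start, cut where a GENCODE M21 exon begins. Capitals mark matches on either strand to the GC box, whose letters are GGGCGG, and to the CCAAT box. They also mark the TATA box, with the letters TATAAA, and the NF-kB motif, given by name alone. The Slit2 window is chr5:47982905-47983137 (+). The Ntn4 window is chr10:93640799-93641048 (+), inside an intron of a short GENCODE transcript of the same gene. The Ephb2 window is chr4:136836013-136836262 (-), outside the GENCODE model of Ephb2.
Slit2: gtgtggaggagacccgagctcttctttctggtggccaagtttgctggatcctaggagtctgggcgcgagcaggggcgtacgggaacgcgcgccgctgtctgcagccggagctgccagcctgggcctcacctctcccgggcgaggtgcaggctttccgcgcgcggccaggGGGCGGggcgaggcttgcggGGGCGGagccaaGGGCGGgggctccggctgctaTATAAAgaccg
Ntn4: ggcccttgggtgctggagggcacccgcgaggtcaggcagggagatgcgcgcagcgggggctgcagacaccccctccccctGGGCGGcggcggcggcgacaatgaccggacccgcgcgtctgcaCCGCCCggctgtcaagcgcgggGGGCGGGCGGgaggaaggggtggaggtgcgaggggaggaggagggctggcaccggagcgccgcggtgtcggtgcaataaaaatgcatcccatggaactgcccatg
Ephb2: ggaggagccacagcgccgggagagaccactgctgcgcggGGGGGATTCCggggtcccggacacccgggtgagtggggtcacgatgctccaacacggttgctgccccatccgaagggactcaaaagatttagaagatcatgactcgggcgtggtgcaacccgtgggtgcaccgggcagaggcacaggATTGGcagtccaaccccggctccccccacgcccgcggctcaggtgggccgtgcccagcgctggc
Slit2 held 3 GC boxes and a TATA box, and Ntn4 held 4 GC boxes, of which the last pair overlap. Ephb2 held no GC box, 1 CCAAT box, 1 NF-kB motif and 1 E-box (CANNTG, left in lower case). The Slit3 window lay mostly inside the first exon of the GENCODE model (232 of 250 bases), so its letters are not shown; it held 6 GC boxes. No AP-1 motif (TGANTCA) was found in the 4 windows. Among all 32851 windows of the same length 32.7% held a GC box, 12.4% a TATA box, 33.8% a CCAAT box, 66.2% an E-box, 6.75% an AP-1 motif and 3.90% an NF-kB motif. The GC content was 78.8% for Slit3, 73.2% for Ntn4, 69.6% for Slit2 and 68.4% for Ephb2, beside a median of 52.4% over all windows. These matches describe letters only.

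Slit3, a secreted ligand of Robo receptors, was the most abundant guidance gene and fell in YFP-positive cells (ENSMUSG00000056427, GRCm38 chromosome 11, 35121224 to 35708507, plus strand). Its level was 2108, 2288, 1918 and 1929 CPM in YFP-negative libraries 1 to 4 and 1541, 1817, 1296 and 1326 CPM in YFP-positive libraries 1 to 4. All 4 YFP-positive libraries lay below all 4 YFP-negative ones, as did those of Sema3b (0.859% of all genes tested). No guidance gene had all YFP-positive libraries above all YFP-negative ones (0.69% of all genes tested). The mean went from 2061 ± 175 to 1495 ± 241 CPM (SD, n = 4), a log2 fold change of -0.47 (SE 0.062) and a fold of 0.721 (95% interval 0.657 to 0.790), with an adjusted p of 0.000644 in edgeR with the block and 0.99985 without it. It was called in all 10 alternative blocked fits. The sums of the adventitial (8 of 9 called lower) and the general fibroblast markers (5 of 8 called lower) fell with Slit3 in all 4 pairs. So did the sums of the enteric glia and immediate early genes, and through Rgs5 that of the pericyte markers. The other 4 of the 5 pericyte markers tested had log2 fold changes above 0. Of the 7 enteric glia markers tested, 6 had log2 fold changes below 0 and 1 above, and 1 was called lower. The part of these markers in the result was not tested, and in bulk libraries fewer cells of a type and less RNA per cell cannot be told apart.

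Slit2, the other Slit tested, fell by a like fold (ENSMUSG00000031558, chromosome 5, 47983138 to 48307733, plus strand). It measured 157, 98.3, 93.3 and 176 CPM in YFP-negative libraries 1 to 4 and 128, 83.3, 70.2 and 122 CPM in YFP-positive libraries 1 to 4. The groups overlapped, with libraries of numbers 1 and 4 high and those of 2 and 3 low in both, yet each YFP-positive library lay below its same-numbered partner. The mean was 131 ± 41.6 CPM against 101 ± 28.5 CPM (SD, n = 4), a log2 fold change of -0.37 (SE 0.074, 95% interval -0.53 to -0.21, edgeR adjusted p 0.0140 with the block). The call was lost without replicate 3 (adjusted p 0.105), without replicate 4 (0.120) and with library sizes alone as the scaling (0.0590). The ratio of Slit3 to Slit2 CPM was 13.4, 23.3, 20.6 and 10.97 in YFP-negative and 12.1, 21.8, 18.5 and 10.9 in YFP-positive libraries 1 to 4. The range of the ratio over the replicate numbers of either group was wider than its gap within any same-numbered pair. The ratio was lower in the YFP-positive library of every pair. Slit1 had 39 counts over the YFP-negative and 17 over the YFP-positive libraries and was not tested.

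**Figure D2:**
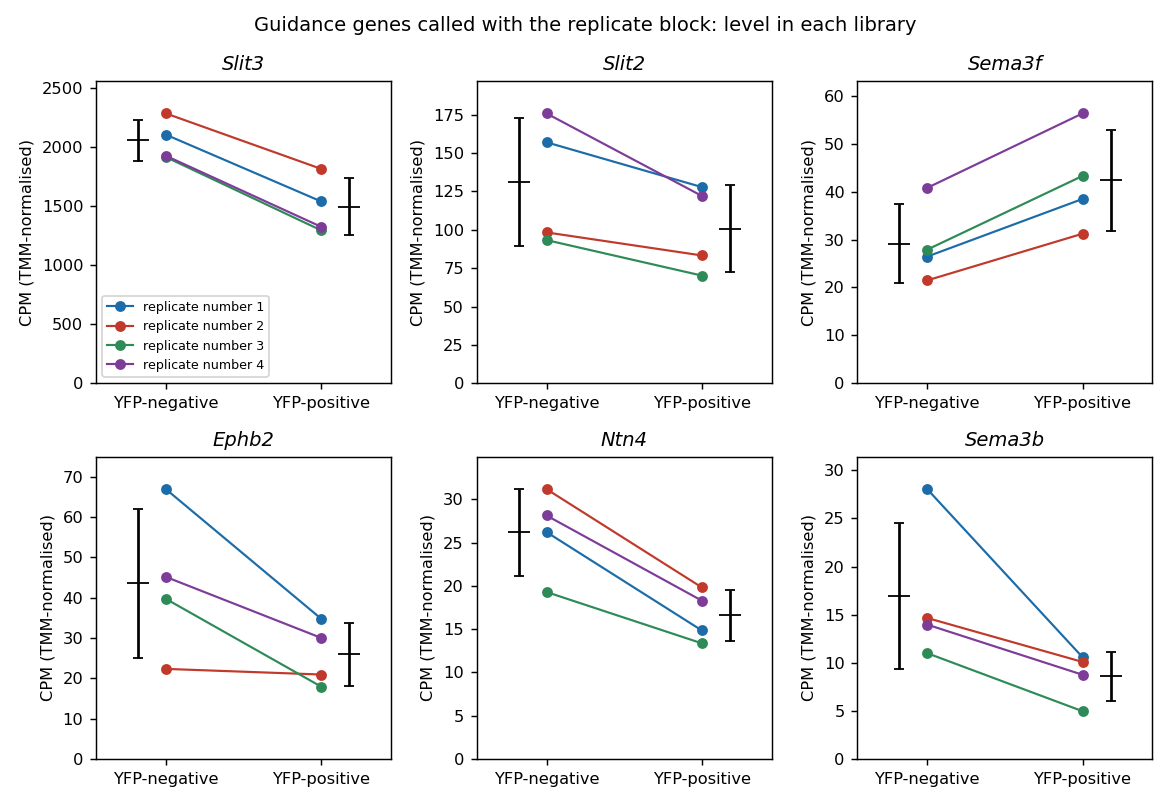
CPM (vertical axis, from 0) of the 6 called guidance genes in each YFP-negative and YFP-positive library; lines join libraries of the same replicate number, and black bars give the mean and SD of each group (n = 4). All lines fall for Slit3, Slit2, Ephb2, Ntn4 and Sema3b and all rise for Sema3f, while the 2 groups overlap for every gene except Slit3 and Sema3b.

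The Robo receptors for Slits showed no called change. Robo2 measured 286, 159, 243 and 331 CPM in YFP-negative libraries 1 to 4 and 292, 179.8, 225 and 361 CPM in YFP-positive libraries 1 to 4. Robo1 measured 168, 69.9, 167 and 187 CPM against 161, 98.5, 156 and 212 CPM. Both receptors were lowest in the libraries of number 2 and highest in those of number 4, and their groups overlapped. The blocked edgeR fold was 1.04 for Robo2 (95% interval 0.941 to 1.15) and 1.09 for Robo1 (0.955 to 1.24), so a fold as low as that of Slit3 lay outside both intervals. Robo4, a receptor of endothelium, was at 0, 7.58, 0.135 and 0.253 CPM in YFP-negative against 0, 1.04, 1.68 and 5.54 CPM in YFP-positive libraries 1 to 4. The endothelial cadherin gene Cdh5 followed the same order of libraries in broad outline, at 1.17, 13.8, 2.09 and 1.72 CPM against 0.103, 3.87, 11.1 and 31.4 CPM; its part in the Robo4 values was not tested. Robo3 had 5 counts in all, 3 in YFP-negative and 2 in YFP-positive libraries, and was not tested.

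Of the netrins, secreted cues related to laminins, Ntn4 fell and Ntn1 did not pass the test. Ntn4 (ENSMUSG00000020019, chromosome 10, 93640681 to 93747207, plus strand) measured 26.2, 31.2, 19.3 and 28.1 CPM in YFP-negative libraries 1 to 4 and 14.8, 19.8, 13.4 and 18.3 CPM in YFP-positive libraries 1 to 4. Every YFP-positive library was below its partner, and the groups overlapped only through YFP-negative replicate 3 and YFP-positive replicate 2. The mean was 26.2 ± 5.04 against 16.6 ± 2.99 CPM (SD, n = 4), a log2 fold change of -0.66 (SE 0.138, 95% interval -0.95 to -0.36, edgeR adjusted p 0.0184 with the block). The call was lost without replicate 1 (adjusted p 0.101), without replicate 3 (0.0793) and without replicate 4 (0.0826). Ntn1, the classical netrin, measured 225, 242, 177 and 234 CPM in YFP-negative against 225, 239.8, 163 and 211 CPM in YFP-positive libraries 1 to 4. Each YFP-positive library was level with or slightly below its partner, and the blocked fold of 0.952 (95% interval 0.866 to 1.05) was not called.

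None of the 5 netrin receptors was called. Unc5b, a receptor that mediates repulsion and is best known in vessels, measured 51.1, 78.0, 34.9 and 26.3 CPM in YFP-negative against 50.8, 81.6, 47.0 and 46.5 CPM in YFP-positive libraries 1 to 4. Its fold was 1.25 (95% interval 1.04 to 1.503, edgeR adjusted p 0.290 with the block), with library 2 the highest of each group. Unc5c, a repulsive netrin receptor of the same family, measured 26.7, 25.2, 18.5 and 22.9 CPM against 32.6, 31.0, 21.6 and 55.3 CPM. It was higher in all 4 pairs with a log2 fold change of 0.52 (SE 0.165, edgeR adjusted p 0.158 with the block), and YFP-positive replicate 4 stood well above the rest. Unc5a, also of that family, measured 26.1, 15.5, 32.9 and 26.0 CPM against 28.2, 12.9, 33.2 and 35.4 CPM, with a fold of 1.06 (95% interval 0.867 to 1.305). Dcc, the attractive netrin receptor, had only 56 counts over the YFP-negative and 82 over the YFP-positive libraries, and Unc5d had 82 and 110.

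Among the class 3 semaphorins, secreted cues for neuropilin and plexin receptors, 2 neighbouring genes moved in opposite directions. Sema3b (ENSMUSG00000057969, chromosome 9, 107597674 to 107609229, minus strand) measured 28.1, 14.7, 10.99 and 14.0 CPM in YFP-negative libraries 1 to 4 and 10.6, 10.1, 4.96 and 8.75 CPM in YFP-positive libraries 1 to 4. All YFP-positive libraries lay below all YFP-negative ones, and YFP-negative replicate 1 stood highest. The mean was 16.9 ± 7.59 against 8.59 ± 2.54 CPM (SD, n = 4), a log2 fold change of -0.95 (SE 0.198, 95% interval -1.37 to -0.53, edgeR adjusted p 0.0177 with the block). The call was lost without replicate 1 (log2 fold change -0.79, adjusted p 0.164) and without replicate 3 (-0.88, 0.122). The summed CPM of the enteric glia markers was also highest in YFP-negative replicate 1. It was 76.4, 22.5, 19.2 and 17.6 CPM in YFP-negative against 15.1, 15.7, 10.8 and 14.3 CPM in YFP-positive libraries 1 to 4. All 10 markers had counts, but 2 had a mean of at least 5 CPM and 7 had enough counts to test. The part of this sum in the Sema3b result was not tested.

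Sema3f (ENSMUSG00000034684, chromosome 9, 107681500 to 107710475, minus strand) was the only guidance gene that rose in this fit. It measured 26.4, 21.5, 27.9 and 40.8 CPM in YFP-negative libraries 1 to 4 and 38.5, 31.2, 43.3 and 56.3 CPM in YFP-positive libraries 1 to 4. Each YFP-positive library was above its partner, and the groups overlapped through YFP-negative replicate 4. The mean was 29.1 ± 8.23 against 42.3 ± 10.6 CPM (SD, n = 4), a log2 fold change of 0.55 (SE 0.106, 95% interval 0.32 to 0.77, edgeR adjusted p 0.0114 with the block). The call was lost without replicate 3 (adjusted p 0.110) and without replicate 4 (0.0557). The sum of the subepithelial fibroblast markers moved the same way in all 4 pairs, as did that of the smooth muscle markers. Of the 7 subepithelial markers tested, 6 had log2 fold changes above 0 and 1 below, and 3 were called higher. The part of these markers in the result was not tested.

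The ratio of Sema3f to Sema3b CPM was 0.942, 1.47, 2.54 and 2.92 in YFP-negative libraries 1 to 4 and 3.64, 3.10, 8.73 and 6.44 in YFP-positive libraries 1 to 4. The groups did not overlap, and the ratio was higher in the YFP-positive library of every pair. This restates the 2 opposite changes and is no further test. The genes lie 72270 bases apart on the same strand. Of the annotated genes between them 2 were tested: Gnai2, a G protein subunit, was at 287 ± 12.1 against 302 ± 22.3 CPM (SD, n = 4, edgeR adjusted p 0.789 with the block), and Gnat1 was below 1 CPM on average in both groups.

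**Figure D3:**
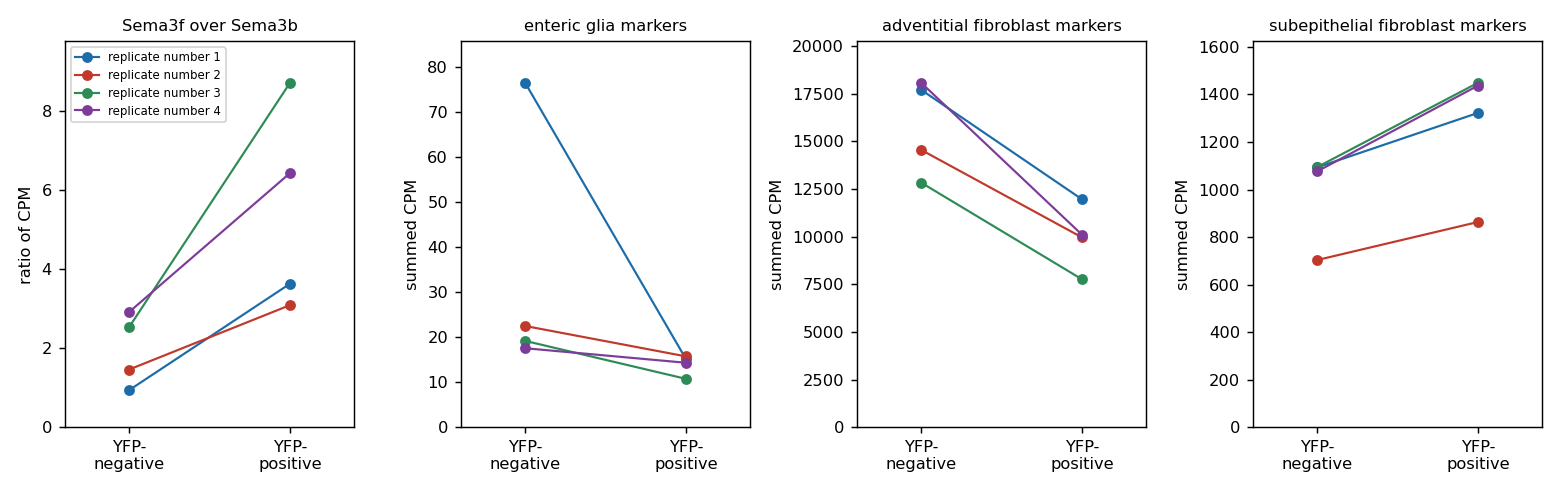
Ratio of Sema3f to Sema3b CPM and the summed CPM of enteric glia, adventitial fibroblast and subepithelial fibroblast markers (vertical axes, from 0) in each YFP-negative and YFP-positive library, with lines joining the same replicate number. The ratio and the subepithelial sum are higher in the YFP-positive library of all 4 pairs and the glia and adventitial sums lower, with the glia sum of YFP-negative replicate 1 at 76.4 CPM far above the other 7 libraries.

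The remaining class 3 semaphorins were not called. Sema3c, the most abundant of them per length of exon, measured 96.6, 37.1, 71.3 and 96.4 CPM in YFP-negative against 90.5, 42.3, 52.6 and 79.9 CPM in YFP-positive libraries 1 to 4. Its libraries of number 2 were the lowest of both groups, and the blocked fold was 0.893 (95% interval 0.774 to 1.03). Sema3a, Sema3d, Sema3e and Sema3g had means of 2.54 to 6.41 CPM over the 8 libraries, with log2 fold changes between 0.10 and 0.66.

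The membrane-bound and other semaphorins gave no call in 12 genes tested. Sema4c, a ligand of plexin-B2 and the most abundant of them per length of exon, measured 115, 156, 89.3 and 94.5 CPM in YFP-negative against 128, 144, 100.2 and 99.0 CPM in YFP-positive libraries 1 to 4, a fold of 1.05 (95% interval 0.939 to 1.17). Sema6a, a transmembrane ligand of A-type plexins, measured 52.2, 55.5, 65.3 and 60.9 CPM against 62.8, 66.2, 77.4 and 93.6 CPM. It was higher in all 4 pairs, with a log2 fold change of 0.35 (SE 0.089) that fell just short of the threshold (edgeR adjusted p 0.0564 with the block). Sema4a, a transmembrane semaphorin that also binds receptors on immune cells, measured 38.6, 24.3, 15.3 and 16.0 CPM against 18.5, 16.8, 13.9 and 8.95 CPM. It was lower in all 4 pairs, with a log2 fold change of -0.64 (SE 0.170, edgeR adjusted p 0.0676 with the block), and YFP-negative replicate 1 was the highest library, as it was for Sema3b. Sema5a, a transmembrane semaphorin, averaged 114 ± 2.20 CPM and 114 ± 22.4 CPM, and Sema6d 73.3 ± 13.4 and 76.3 ± 6.79 CPM (SD, n = 4 each). Sema4b, Sema6b and Sema6c averaged 13.3 to 31.7 CPM over the 8 libraries and Sema4d, Sema4g, Sema5b and Sema7a 0.367 to 4.16 CPM.

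The neuropilins, co-receptors that bind class 3 semaphorins and vascular endothelial growth factors, were abundant and not called. Nrp1 measured 178, 285, 241 and 208 CPM in YFP-negative against 189, 293, 244 and 238 CPM in YFP-positive libraries 1 to 4. It was slightly higher in every pair, with a fold of 1.06 (95% interval 0.967 to 1.17). Nrp2 measured 144, 356, 187 and 151 CPM against 118, 371, 197 and 135 CPM, a fold of 0.950 (95% interval 0.852 to 1.06). Both libraries of number 2 stood far above the other 6 for Nrp2, and the groups matched closely within each number.

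The plexins, which carry the semaphorin signal across the membrane, also gave no call in 9 genes tested. Plxnb2, a receptor of class 4 semaphorins, measured 219, 109, 221 and 222 CPM in YFP-negative against 199, 118, 221 and 189.9 CPM in YFP-positive libraries 1 to 4. Plxnd1, the receptor of Sema3e, measured 162, 114, 192 and 156 CPM against 176, 104, 210.1 and 158 CPM. Both were low in the 2 libraries of number 2, and their folds were 0.956 (95% interval 0.860 to 1.06) and 1.03 (0.925 to 1.14). Plxna4, a receptor of Sema3a and Sema6 ligands, measured 20.9, 23.0, 15.5 and 33.5 CPM against 33.7, 23.8, 15.0 and 52.1 CPM, with a log2 fold change of 0.34 (SE 0.148, edgeR adjusted p 0.391 with the block). Libraries 1 and 4 carried that difference, and libraries 2 and 3 were level. Plxna1 averaged 141 ± 35.0 and 162 ± 46.9 CPM and Plxna2 137 ± 29.2 and 159 ± 51.6 CPM (SD, n = 4 each). Plxna3, Plxnb1 and Plxnc1 averaged 7.53 to 17.6 CPM over the 8 libraries. Plxnb3, a plexin known from glial cells of the nervous system, had 93, 12, 25 and 4 counts in YFP-negative and 25, 0, 4 and 1 counts in YFP-positive libraries 1 to 4 and was not called (edgeR adjusted p 0.129 with the block). Its highest library, YFP-negative replicate 1, was also that of the glial gene Gfap, at 9.57 CPM there against 0 to 3.66 CPM in the other 7; its part in the Plxnb3 values was not tested.

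Ephrin ligands showed no called difference. Efna5, a membrane-anchored ligand of EphA receptors, measured 269, 119.5, 212 and 269 CPM in YFP-negative against 198, 151, 178 and 244 CPM in YFP-positive libraries 1 to 4, a fold of 0.913 (95% interval 0.778 to 1.07). The libraries of number 2 were again the lowest of each group. Efnb1, a transmembrane ligand of EphB receptors, measured 28.0, 24.4, 44.3 and 32.0 CPM against 35.7, 17.9, 50.9 and 34.1 CPM, a fold of 1.05 (0.861 to 1.27). Efnb2, a ligand of EphB4 known in vessels, measured 45.2, 38.6, 33.3 and 45.9 CPM against 54.1, 44.7, 43.5 and 54.2 CPM. It was higher in all 4 pairs while the groups overlapped, with a fold of 1.21 (1.05 to 1.39, edgeR adjusted p 0.207 with the block). Efna2, an ephrin-A, averaged 6.80 ± 2.62 and 5.66 ± 1.68 CPM (SD, n = 4 each), and Efna1, Efna3, Efna4 and Efnb3 averaged 0.871 to 2.62 CPM over the 8 libraries.

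Among the Eph receptors, which are receptor tyrosine kinases, only Ephb2 was called. Ephb2 (ENSMUSG00000028664, chromosome 4, 136647539 to 136835988, minus strand) measured 66.9, 22.3, 39.7 and 45.1 CPM in YFP-negative libraries 1 to 4 and 34.8, 20.9, 17.9 and 30.01 CPM in YFP-positive libraries 1 to 4. It was lower in all 4 pairs, but the 2 libraries of number 2 were nearly equal, and the groups overlapped. YFP-negative replicate 1, the library with the highest sum of enteric glia markers (76.4 CPM), was also the highest for Ephb2; the part of these markers was not tested. The mean was 43.5 ± 18.4 against 25.9 ± 7.82 CPM (SD, n = 4), a log2 fold change of -0.71 (SE 0.149, 95% interval -1.03 to -0.39, edgeR adjusted p 0.0205 with the block). The call was lost without replicate 1 (adjusted p 0.134), without replicate 3 (0.163), without replicate 4 (0.0637) and with library sizes alone (0.0533). Epithelial cells of the crypt express Ephb2. The sum of 13 epithelial markers was 22.3, 6.13, 3.00 and 26.3 CPM in YFP-negative libraries 1 to 4. In YFP-positive libraries 1 to 4 it was 8.37, 28.5, 2.40 and 154 CPM. Of these markers 2 had a mean of at least 5 CPM, and their part in the Ephb2 result was not tested.

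The other Eph receptors were not called. Ephb4, the receptor of ephrin-B2, measured 43.1, 42.3, 48.7 and 48.1 CPM in YFP-negative against 45.5, 35.1, 49.3 and 52.3 CPM in YFP-positive libraries 1 to 4, a fold of 0.994 (95% interval 0.858 to 1.15). Ephb3 measured 26.5, 35.8, 39.2 and 34.2 CPM against 26.3, 27.6, 38.4 and 27.0 CPM, a fold of 0.880 (0.739 to 1.05). Ephb2, Ephb3 and Ephb4 thus had comparable CPM, and the estimate for Ephb2 lay below the intervals of Ephb3 and Ephb4. Whether the receptors differ from each other in response was not tested. Epha2, a receptor of ephrin-A ligands best known in epithelium, measured 28.4, 37.1, 18.3 and 11.6 CPM against 33.0, 45.2, 23.2 and 18.9 CPM. It was higher in all 4 pairs, with a log2 fold change of 0.38 (SE 0.130, edgeR adjusted p 0.198 with the block). Epha4, which binds both ephrin classes, measured 19.5, 16.4, 19.2 and 22.7 CPM against 19.4, 20.2, 18.6 and 17.0 CPM, a fold of 0.969 (0.768 to 1.22). Epha3, Epha5 and Epha7 averaged 5.46 to 23.1 CPM over the 8 libraries, and Epha1, Epha6, Ephb1 and Ephb6 0.513 to 4.28 CPM.

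Per kilobase of merged exons, a scale on which genes can be set beside each other, Slit3 was far above the rest, at 293 CPM per kilobase as a mean of all 8 libraries. Efna5 followed at 50.8, Ntn1 at 34.2, Sema4c at 25.2, Plxnb2 at 24.3, Nrp1 at 24.0 and Plxnd1 at 21.8 CPM per kilobase. Among the 44 genes in that order only 4 of the 43 steps between neighbours exceeded the larger of both SDs: Slit3 to Efna5, Efna5 to Ntn1, Ntn1 to Sema4c, and Robo2 (15.3) to Sema3c (9.92). The order depends on the length used. With the longest protein-coding transcript, an alternative chosen after the data were seen, Slit3 was still first at 340.1 CPM per kilobase, but Nrp1 moved to the second place at 65.2 and Slit2 went from 4.56 to 11.6 CPM per kilobase.

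**Figure D4:**
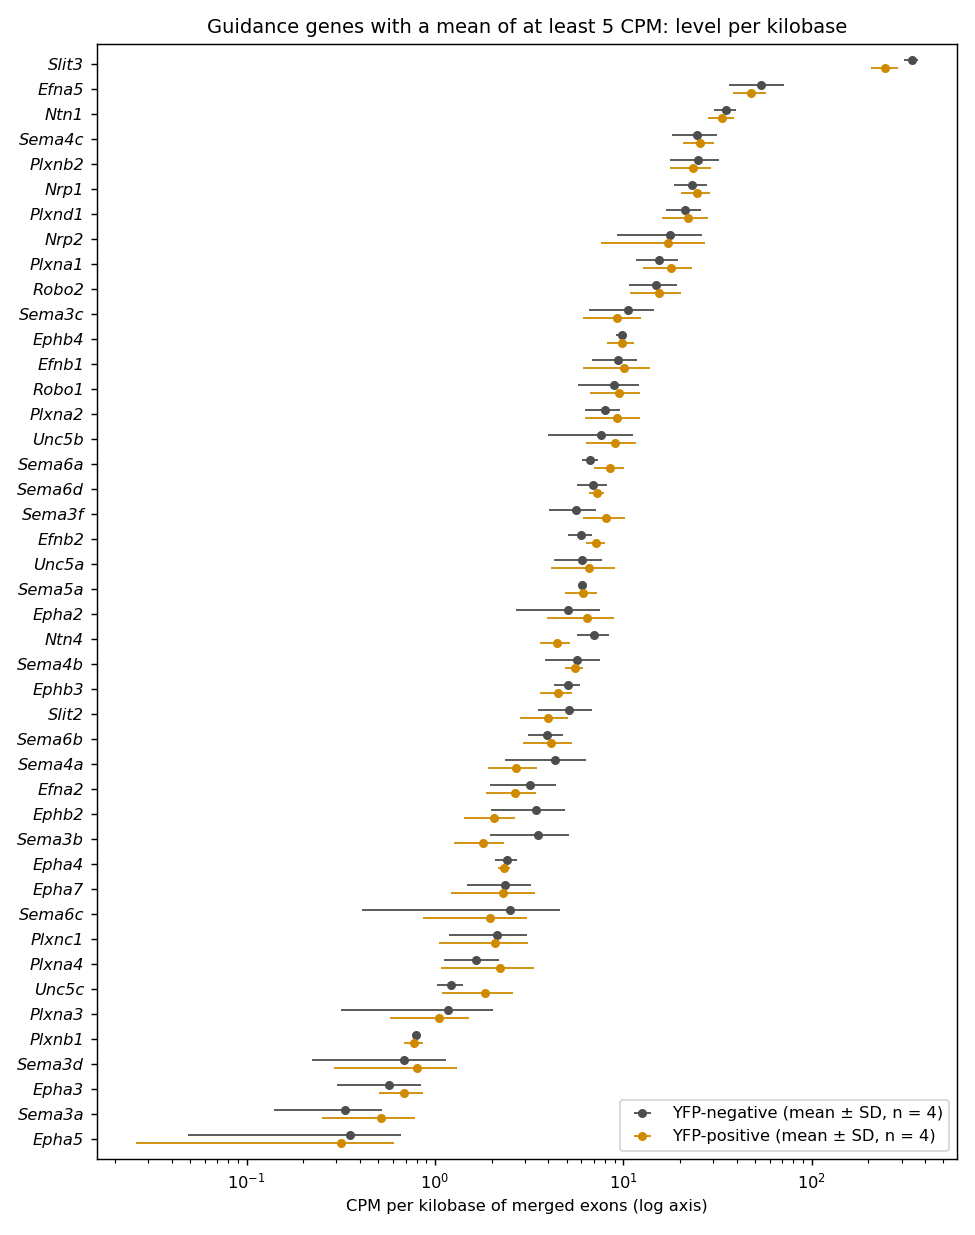
Level of the 44 guidance genes with a mean of at least 5 CPM, in CPM per kilobase of merged exons (horizontal log axis), as mean and SD of the 4 YFP-negative and the 4 YFP-positive libraries. Slit3, at 293 CPM per kilobase over all 8 libraries, stands to the right of all others, and the bars of the 2 groups overlap for most of the other genes.

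Many of the guidance genes varied between replicate numbers. An F test in edgeR of the replicate number, with the group in the model, called 33 of the 62 genes tested (53.2%), beside 39.3% of all genes; at a mean of at least 5 CPM it called 30 of 44, beside 55.3% of all such genes. For these 44 the highest of the 4 pair means was a median of 1.96 times the lowest, and over 2 times in 21. The median absolute log2 fold change between YFP groups was 0.13. The first measure takes the extremes of 4 values and the other is a log2 contrast of 2 groups, so their sizes cannot be compared. Both libraries of number 2 lay above the other 6 in 9 of the 44 genes (20.2% of all 10534 such genes) and below them in 13 (25.9%), shares close to those over all genes. The former include Nrp2 (356 and 371 CPM, adjusted p 7.3e-08 in edgeR's F test), Nrp1, Ntn1, Unc5b, Epha2 and Sema4c. The latter include the Robos Robo1 and Robo2, the plexins Plxna1, Plxnb2, Plxnc1 and Plxnd1, Sema3c and Efna5. The sources used here do not say what the number marks, whether an animal, a day or another batch.

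**Figure D5:**
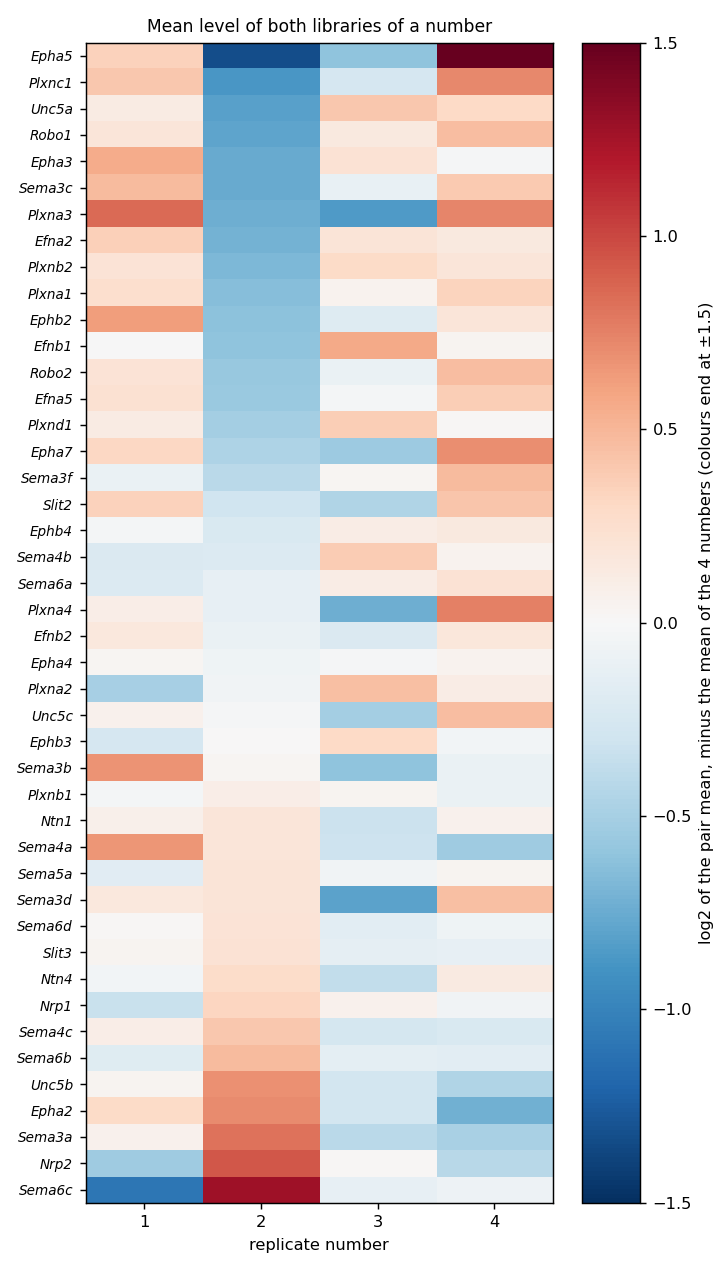
Mean level of the 2 libraries of each replicate number (columns) for the 44 guidance genes with a mean of at least 5 CPM (rows), as log2 of the pair mean minus the mean over the 4 numbers, in colour. Number 2 has the strongest contrast, from Epha5 and Plxnc1, low in it, to Nrp2 and Sema6c, high in it.

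Other genes of the guidance pathways, from a list of 90 co-receptors, cell adhesion partners and cytoplasmic effectors of which 89 were matched, mostly gave no call. Of the 79 tested, 1 rose and 1 fell in the blocked edgeR fit, and their median log2 fold change was 0.00. Adgrl3, a latrophilin that binds FLRT proteins and teneurins, measured 292 ± 82.2 CPM in YFP-negative against 416 ± 126 CPM in YFP-positive libraries (SD, n = 4), a log2 fold change of 0.51 (SE 0.080, edgeR adjusted p 0.00247 with the block). Rnd3, which lowers actomyosin contraction, measured 146 ± 32.1 against 108 ± 28.4 CPM (SD, n = 4), a log2 fold change of -0.46 (edgeR adjusted p 0.00531 with the block). Without the block 0 of the 79 passed; at an unadjusted p of 0.05 or below 3 were higher (0.978% of all genes tested) and 2 lower (1.06%).

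Of the 8 genes too low to test, Epha8, Epha10, Sema4f, Slit1 and Robo3 had 5 to 56 counts over the 8 libraries, and the 3 antisense transcripts had 0, 0 and 2. The sources used here do not give the strand setting of the counting. Exons of 14 of the genes overlap those of a gene on the other strand. Whether reads in the shared bases were told apart is therefore not known. The shared bases were 33 of 4640 exon bases for Ephb4 and 970 of 9054 for Plxna1. The 14 genes also include Sema4c, Plxna4, Unc5a and Unc5c, and none of the 6 called genes. The authors' deposited table gave 8 guidance genes an adjusted p of 0.05 or below, beside 3.01% of the 16502 genes with one there (0.939% higher and 2.07% lower). These were the 6 above, with Sema3f higher and the other 5 lower, and 2 more lower ones, Plxnb3 (adjusted p 0.0365) and Sema4a (0.0436). Slit3 had an adjusted p of 2.6e-15 in the authors' deposited table. DESeq2 on the same counts gave Slit3 an adjusted p of 1.1e-13 with the replicate block and 0.99995 without it. The deposited calls come from the same libraries and are no further test.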

How the data were processed

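Gene counts for 4 YFP-positive and 4 YFP-negative libraries came from the authors' deposited table, which also holds the authors' log2 fold changes and p-values; the raw counts were used for every test, and the deposited log2 and p-value columns only where the authors' table is named. Libraries were made with a stranded total RNA kit for low input, per the labels' protocols. Cutadapt 3.4, STAR 2.7.3a, featureCounts 2.0.1, DESeq2 and the build GRCm38 (mm10) are named in the submitters' processing notes. The sources used here do not give the strand setting or the annotation release. Gene positions were taken from GENCODE M21 (53706 of 53801 identifiers matched).

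Counts of all genes were fitted with edgeR 4.0.16 (R 4.3.3; TMM factors, filterByExpr, robust quasi-likelihood test, two-sided), which kept 15945 genes, and p-values were adjusted by Benjamini-Hochberg over all of them. The stated main fit had no block. Same-numbered libraries correlated in their deviations from the group means (r 0.328, 0.592, 0.475 and 0.465), while no other pair across groups exceeded 0.0732, so a blocked fit, with the replicate number as a term, is given beside it; the pairing comes from the data, as the labels do not say what a number shares. DESeq2 1.42.0, limma 3.58.1 (voom), other scalings and count filters, and leaving out each library or pair were alternatives, and the count fits were tested on simulated data. Genes given in full were those called, the 2 most abundant per role and the largest change per role at a mean of at least 5 CPM; Slit1, Robo4, Plxnb3 and other genes given in part were added to account for every member. The gene families, marker lists and pathway list were chosen with earlier results of these data known.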

Additional observations from a re-analysis of the deposited data

Results flagged for a closer look

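Of 58 sets of 4 libraries checked for 1 library far from the other 3, which chance gives in about 1 in 20 sets, 3 had one. Ephb3 was at 38.4 CPM in YFP-positive replicate 3 and at 26.3 to 27.6 CPM in the other YFP-positive libraries. Unc5b was at 81.6 CPM in YFP-positive replicate 2 and at 46.5 to 50.8 CPM in the others. Plxnb2 was at 109 CPM in YFP-negative replicate 2 and at 219 to 222 CPM in the others. In each case the same-numbered library of the other group was also the highest or the lowest of its group, at 39.2 CPM for Ephb3, 78.0 CPM for Unc5b and 118 CPM for Plxnb2.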

How the results depend on the processing

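The calls rest on the replicate block: 0 guidance genes were called without it, and 1 higher and 5 lower with it. In blocked fits the higher calls numbered 2 with limma voom, with library sizes alone and with the stricter filter (CPM of at least 2 in 4 libraries), 3 with the looser one (any count of at least 1), and 0 to 1 when a pair was left out. Lower calls numbered 7 with DESeq2 or limma voom, 6 with the looser or the stricter filter and 3 with library sizes alone. When a pair was left out they numbered 1 to 5, with 1 (Slit3) without replicate 3. Sema6a, Sema4a, Plxnb3 and Unc5c were each called by at least 1 blocked alternative. Pathway genes called higher numbered 3 with DESeq2, limma voom or library sizes alone, 4 with the looser and 2 with the stricter filter; those called lower numbered 2 with DESeq2, 4 with limma voom, 3 with the looser filter and 1 to 3 when a pair was left out. The cause was not tested.

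Without the block, 12 uncalled log2 fold changes near 0 changed sign when a library was left out, over these ranges: Epha4 -0.12 to 0.033, Ephb4 -0.072 to 0.11, Robo2 -0.13 to 0.20, Robo1 -0.15 to 0.25, Efnb1 -0.13 to 0.32, Unc5a -0.045 to 0.36, Ntn1 -0.16 to 0.040, Nrp1 -0.024 to 0.21, Nrp2 -0.48 to 0.35, Sema4c -0.060 to 0.24, Plxnb2 -0.28 to 0.077 and Plxnd1 -0.091 to 0.22. Ephb4 also went to -0.0070 with DESeq2, -0.0049 with limma voom, -0.0075 with RLE factors and -0.0082 with the replicate block, and library sizes alone gave 0.035 for Epha4, 0.021 for Ntn1, 0.059 for Nrp2 and 0.0025 for Plxnb2. The number of genes called for replicate number stayed between 26 and 39. With the longest coding transcript as the length, the level per kilobase moved by at least its SD over the 8 libraries for 12 of the 29 genes given in full. Genes under about 1 CPM had few counts, and how large a difference could be detected in them was not tested.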
